A study of Homo sapiens with 6 samples.

Results

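The genes described here are 58 ribosome biogenesis factors, given as a list of gene symbols and looked up in a table of 15024 genes, where all 58 were present once each. They were measured by RNA sequencing in MDA-MB-231, an established triple-negative breast cancer line of mesenchymal character, after loss of MLL3, the histone methyltransferase encoded by KMT2C. Cells sorted as CD44+CD104high (n = 3), called CD104high here and a hybrid epithelial and mesenchymal state in the study's design, were compared with cells sorted as CD44+CD104-/low (n = 3), called CD104low here and mesenchymal in the design. CD104 is integrin beta-4. All 6 samples carried the Mll3-null genotype and had been kept for 14 days in 10 µM forskolin, which activates adenylyl cyclase and thereby protein kinase A, so neither the genotype nor the drug differs between the populations. The labels number the samples as biological replicates 1 to 3 of each population but do not say whether they came from separate cultures, so p-values cover no more than the spread seen among these 6 samples. They also do not say whether the null cells were 1 clone. Wild-type cells, which the design mentions, were not analysed here.

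Ribosomes are built in the nucleolus. RNA polymerase I transcribes a long precursor rRNA, small nucleolar ribonucleoproteins (snoRNPs) guide its chemical modification, and a large set of assembly factors fold it, cut it and join it to ribosomal proteins until the small (40S) and large (60S) subunits are exported. Ribosome production is known to follow growth signals, and MYC is a well-known activator of many of its genes. The 58 genes encode these factors and not the ribosomal proteins themselves. Bulk RNA measures the average of a population, so less RNA per cell and fewer cells with the RNA cannot be told apart.

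The libraries held 49791498 to 60069719 recovered reads on the listed genes. ITGB4, which encodes the sorted protein, checked the sort: it was at 15445, 14508 and 19435 in CD104high, against 1492, 2273 and 1333 in CD104low. CD44, the other sorting marker, was at 26496, 22069 and 28210.4 in CD104high, against 25001, 23282 and 25669 in CD104low. KMT2C, the targeted gene, was still read, at 3934, 3561 and 3952 in CD104high, against 2095, 2611 and 2814 in CD104low. It was higher in CD104high (log2 fold change 0.62, SE 0.11, limma adjusted p = 0.0027), without overlap between the populations. Values are given per gene and not per exon, so they say nothing of how the null genotype was made. Vimentin (VIM), a mesenchymal marker of this line, was present at 19871 to 23329 in CD104high and 19896 to 20647 in CD104low, and did not pass the test. The epithelial marker EPCAM was at 565, 554 and 673 in CD104high, against 813, 695 and 722 in CD104low (log2 fold change -0.32, SE 0.12, limma adjusted p = 0.0531). ERBB2, which encodes HER2, was at 8184, 8564 and 7747 in CD104high, against 6325, 7012 and 6219 in CD104low (log2 fold change 0.33, SE 0.07, limma adjusted p = 0.00621). CDH1, ESR1 and PGR were the 3 of 6 line markers not analysed here. Of 10 leukocyte markers only CD14 and LAPTM5 were in the table, and their summed level was 679 to 936 in CD104high and 319.8 to 404 in CD104low, while the other 8, PTPRC among them, were not analysed here. Of 6 endothelial markers 4 were in the table, summing to 75.1 to 126 in CD104high and 61.3 to 104 in CD104low. The part of such cells in the results below was not tested.

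Levels are scaled read counts, whose values in each library are whole reads divided by 1 factor. Log2 fold changes are CD104high over CD104low on the log2(value + 1) scale, tested with limma across all genes, and a gene is called at a Benjamini-Hochberg adjusted p under 0.05. All 58 members passed the filter on low values, which kept genes with values of 10 or more in 3 or more libraries.

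Ribosome biogenesis factors were lower in CD104high almost throughout. Of the 58 members 53 fell, 1 rose and 4 were not called, and the median log2 fold change was -0.60 (quartiles -0.74 and -0.40). In the same test 43.4% of 14420 genes were called in either direction, 21.6% lower and 21.8% higher, with a median log2 fold change of 0.02. In 53 members every CD104high library lay below every CD104low library, where 26.9% of all tested genes did so, and in 1 member the order was the opposite, where 27.4% did so. A fall of at least 0.5 on the log2 scale was called in 39 members, against a background of 8.41%. The authors' deposited table also had 53 members lower and 1 higher at an adjusted p under 0.05, where 22.6% of its genes were lower and 23.1% higher, and its 53 lower members were the same genes.

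Together the members held 0.589%, 0.566% and 0.556% of the scaled reads in the CD104high libraries, against 0.876%, 0.824% and 0.863% in the CD104low libraries. The populations did not overlap in this share. The median coefficient of variation between replicates was 5.61% in CD104high and 5.79% in CD104low for members, against 8.74% in CD104high and 8.87% in CD104low over all tested genes. Within CD104low, replicate 2 was the lowest library for 44 of 58 members (75.9%, against 43.0% of all tested genes). Within CD104high, replicate 1 was the highest for 32 of 58 members (against 22.9% of all tested genes) and the lowest for 3 (5.17%, against 29.3%), and replicate 3 was the lowest for 30 (51.7%, against 35.5%). The map of levels by library shows these patterns.

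**Figure D1:**
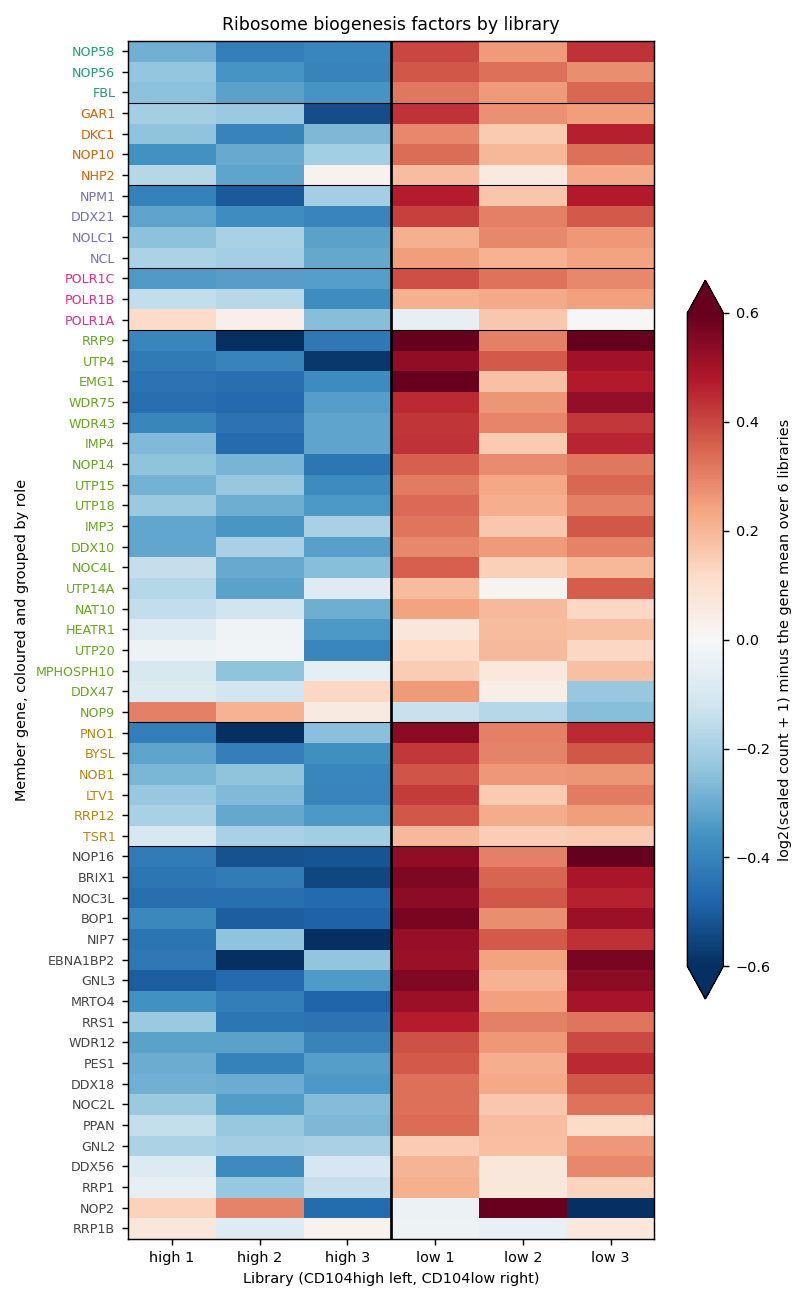
Each row is a member and each column a library, CD104high on the left and CD104low on the right. Colour gives log2(scaled count + 1) minus the gene's mean over the 6 libraries, and rows are grouped by role. In 53 rows all CD104high libraries lie below all CD104low libraries, and CD104low replicate 2 is the palest of its population in most rows.

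Promoter sequence was examined because the members moved together. The E-box CACGTG, a palindrome that reads the same on both strands and is known as a binding sequence of MYC with its partner MAX, was searched in RefSeq windows of 300 bases (GRCh38.p14, 250 before to 50 after the annotated start). Windows were matched by symbol for 50 of the 58 members, and 23 of these 50 genes (46%) had at least 1 CACGTG, against 1360 of 11154 tested genes with a window (12.2%), 23 of 99 other genes of the pathway (23.2%) and 2396 of all 27305 genes of the promoter table (8.77%). Counted by window, 24 of 58 member windows (41.4%) and 7.26% of all 35116 windows held it. Of the 27 distinct sites in member windows, 16 (59.3%) began within the first 50 bases after the annotated start. Of the 1642 matches in windows of tested genes, 9.93% began there. These matches were counted by window, so a site in overlapping windows could count more than once. Taking the window of highest GC content in each gene, the median GC content was 64.2% in members and 67% in tested genes. A match is a run of letters, and binding was not measured.

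The windows below are those of the 3 members with an E-box and the largest falls (RRP9, UTP4 and NOC3L), of the snoRNP methyltransferase FBL, and of NOP9, the member that rose, whose window holds none. They are written 5′ to 3′ on the gene's strand with CACGTG in capitals. The first base of the motif lies 5 bases before the annotated start in RRP9, 16 before it in UTP4, and at the 20th base from the start in NOC3L and the 7th in FBL. The windows lie at chr3:51941855-51942154, minus strand, for RRP9, chr16:69132399-69132698, plus strand, for UTP4, chr10:94362890-94363189, minus strand, for NOC3L, chr19:39846330-39846629, minus strand, for FBL, and chr14:24299600-24299899, plus strand, for NOP9.
RRP9: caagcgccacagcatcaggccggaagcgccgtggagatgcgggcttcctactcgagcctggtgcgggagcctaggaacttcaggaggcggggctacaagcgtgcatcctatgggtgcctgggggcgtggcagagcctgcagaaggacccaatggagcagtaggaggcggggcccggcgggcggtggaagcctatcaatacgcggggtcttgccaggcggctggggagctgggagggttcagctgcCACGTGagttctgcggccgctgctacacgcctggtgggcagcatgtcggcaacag
UTP4: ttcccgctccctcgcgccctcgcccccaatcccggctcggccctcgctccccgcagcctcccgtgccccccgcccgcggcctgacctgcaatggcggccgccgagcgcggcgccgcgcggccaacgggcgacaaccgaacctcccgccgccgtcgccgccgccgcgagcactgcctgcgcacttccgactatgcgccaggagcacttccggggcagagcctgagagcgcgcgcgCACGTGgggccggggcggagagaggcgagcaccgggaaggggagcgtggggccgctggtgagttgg
NOC3L: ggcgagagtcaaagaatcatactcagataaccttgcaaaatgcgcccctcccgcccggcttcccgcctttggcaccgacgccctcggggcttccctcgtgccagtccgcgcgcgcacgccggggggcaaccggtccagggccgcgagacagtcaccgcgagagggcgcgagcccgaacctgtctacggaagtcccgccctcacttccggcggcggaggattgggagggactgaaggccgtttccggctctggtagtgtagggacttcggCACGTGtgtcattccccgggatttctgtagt
FBL: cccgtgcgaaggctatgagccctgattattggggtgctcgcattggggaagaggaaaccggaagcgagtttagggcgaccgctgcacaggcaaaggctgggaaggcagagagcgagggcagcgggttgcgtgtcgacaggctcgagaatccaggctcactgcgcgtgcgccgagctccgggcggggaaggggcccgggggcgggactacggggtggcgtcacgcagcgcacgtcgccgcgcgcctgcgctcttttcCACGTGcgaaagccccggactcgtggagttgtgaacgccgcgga
NOP9: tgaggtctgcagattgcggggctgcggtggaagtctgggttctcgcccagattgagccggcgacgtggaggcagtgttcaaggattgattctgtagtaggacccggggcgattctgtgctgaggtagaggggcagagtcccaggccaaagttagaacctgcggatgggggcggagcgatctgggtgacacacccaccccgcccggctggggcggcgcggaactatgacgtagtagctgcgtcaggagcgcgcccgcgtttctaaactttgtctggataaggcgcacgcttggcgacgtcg

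Members with an E-box in the window had a median log2 fold change of -0.69 and 22 of 23 were called lower. Members with a window and no E-box had a median of -0.56, with 24 of 27 called lower and 1 called higher. The 23 include RRP9, UTP4, NOC3L, EBNA1BP2, GNL3, PNO1, MRTO4, WDR43, BYSL, DDX21, IMP4, PES1, GAR1, NOP14, FBL, LTV1, NOP10, UTP18, GNL2, UTP14A, NAT10, UTP20 and NOP2, and of these NOP2 alone was not called. Among the other pathway genes, 19 of 23 with the motif were called lower (median -0.47), and 55 of 76 without it (median -0.39). Over all tested genes, those with the motif had a median of -0.02 and 24.4% called lower, and those without it a median of 0.01 and 22.4% called lower. The difference between members with and without the motif was not tested.

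**Figure D2:**
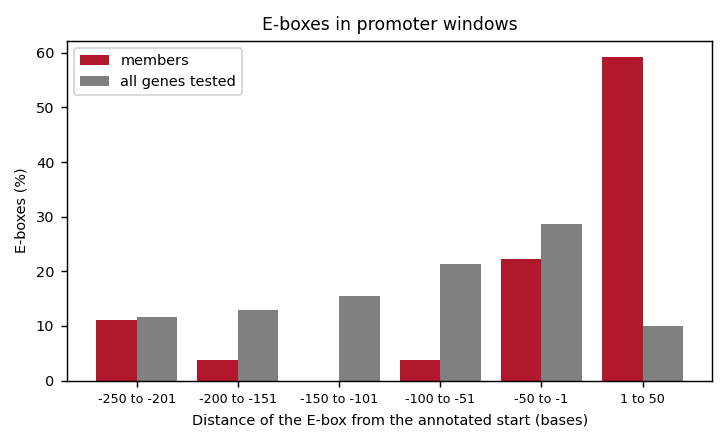
Share of CACGTG sites (vertical axis, %) by distance of their first base from the annotated start (horizontal axis, bases). Shown are the 27 distinct sites of members and the 1642 matches of all tested genes, counted by window. The bin of 1 to 50 holds 59.3% of member sites and 9.93% of the matches of tested genes.

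The box C/D snoRNPs place 2′-O-methyl groups on rRNA, and all 3 core members in the list fell. FBL (ENSG00000105202.9, GRCh38 chromosome 19, 39834458 to 39846414), encoding the methyltransferase fibrillarin, was at 11975, 11368 and 11104 in CD104high, against 17685, 16952 and 18006 in CD104low. The libraries of the populations did not overlap, and the mean was 34.6% lower in CD104high (log2 fold change -0.61, SE 0.06, limma adjusted p = 0.00029). NOP58, a scaffold of the same particle, was at 3854, 3539 and 3582 in CD104high, against 6211, 5612 and 6344 in CD104low (log2 fold change -0.73, SE 0.07, limma adjusted p = 0.000298). NOP56, the other scaffold, was at 9177, 8418 and 8159.8 in CD104high, against 13961, 13532 and 13079 in CD104low (log2 fold change -0.66, SE 0.06, limma adjusted p = 0.0003). The 3 genes lay within a narrow band, from -0.73 to -0.61 on the log2 scale, and in each the highest CD104high library was below the lowest CD104low library.

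The box H/ACA snoRNPs turn uridines of rRNA into pseudouridine, and all 4 core members fell, with a median log2 fold change of -0.59. DKC1 (ENSG00000130826.18, GRCh38 chromosome X, 154762742 to 154777689), encoding the pseudouridine synthase dyskerin, was at 5787, 5169 and 5679 in CD104high, against 8334, 7624 and 9450.2 in CD104low, 34.5% lower in CD104high on the mean (log2 fold change -0.61, SE 0.09, limma adjusted p = 0.0011). NOP10, a small structural protein of the particle, was at 2773, 2895 and 3100.5 in CD104high, against 4493, 4101 and 4488 in CD104low (log2 fold change -0.58, SE 0.07, limma adjusted p = 0.000617). GAR1, which binds the synthase, was at 2434, 2399.6 and 1934 in CD104high, against 3781, 3389 and 3329 in CD104low (log2 fold change -0.64, SE 0.10, limma adjusted p = 0.00166). The populations did not overlap in these 3 genes. NHP2, an RNA-binding core protein, fell least of the 4, by 0.31, at 2440.3, 2208 and 2793 in CD104high, against 3129, 2862 and 3221 in CD104low, and its highest CD104high library lay only just below its lowest CD104low library. Several of these genes also serve telomerase, which shares the H/ACA core.

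Abundant nucleolar proteins were lower as well, with 4 of 4 falling. Nucleophosmin, encoded by NPM1, is a histone and ribosome chaperone that structures the granular part of the nucleolus. NPM1 (ENSG00000181163.13, GRCh38 chromosome 5, 171387116 to 171411137) was at 44248, 41266 and 50823 in CD104high, against 81184, 65815 and 81388 in CD104low, and the populations did not overlap (log2 fold change -0.74, SE 0.11, limma adjusted p = 0.00108). The annotation names 45 NPM1 pseudogenes, with which reads can be shared, so the level of this gene is uncertain. NCL encodes nucleolin, which binds precursor rRNA, and was at 44794, 44451 and 41386 in CD104high, against 60800.4, 59107 and 60561 in CD104low (log2 fold change -0.47, SE 0.06, limma adjusted p = 0.000716). NOLC1, the snoRNP chaperone Nopp140, was at 11267, 11702 and 10687 in CD104high, against 15515, 16349 and 16002 in CD104low (log2 fold change -0.51, SE 0.06, limma adjusted p = 0.0005). The RNA helicase gene DDX21, which acts in rRNA transcription and processing, was at 16034, 15427 and 15154 in CD104high, against 26467, 24621 and 25776 in CD104low (log2 fold change -0.72, SE 0.06, limma adjusted p = 0.000202). In none of the 4 genes did a CD104high library reach the level of a CD104low library. Per kilobase of the longest annotated transcript, NPM1 had the highest level of the 58 members, with mean scaled counts of 25851 in CD104high and 43304 in CD104low, followed by NCL with 10794 in CD104high and 14912 in CD104low and FBL with 8202 in CD104high and 12534 in CD104low.

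Of the 3 RNA polymerase I subunits 2 fell and 1 was not called. POLR1C, a subunit shared with RNA polymerase III, was at 1298, 1304 and 1303 in CD104high, against 2147, 2057 and 2002 in CD104low, with CD104high libraries close together (log2 fold change -0.67, SE 0.07, limma adjusted p = 0.000355). POLR1B, the second largest subunit, was at 3077, 3040.3 and 2636 in CD104high, against 3960.4, 3993 and 4045 in CD104low (log2 fold change -0.46, SE 0.08, limma adjusted p = 0.00192). POLR1A, the largest, catalytic subunit, was not called, at 11058, 10438 and 8549 in CD104high, against 9882, 11412 and 10206 in CD104low (log2 fold change -0.07, SE 0.10, limma adjusted p = 0.586). Its populations overlapped, and its call depended on the processing: once values were corrected for GC content and transcript length it fell by 0.43 (limma adjusted p = 0.00116). Without replicate 3 of CD104high its log2 fold change was 0.04.

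The small subunit processome is the large particle that forms on the nascent precursor around U3 snoRNA and makes the early cuts for the 40S subunit. Of its 19 members in the list 17 fell, 1 rose and 1 was not called, with a median of -0.57. RRP9, the U3-specific snoRNP protein, had the largest fall of all 58 members. RRP9 (ENSG00000114767.7, GRCh38 chromosome 3, 51933430 to 51941941) was at 2277, 1830.4 and 2214 in CD104high, against 4544, 3676 and 4586 in CD104low, 50.6% lower in CD104high on the mean (log2 fold change -1.02, SE 0.11, limma adjusted p = 0.000446). UTP4, a member of the complex that binds the precursor first, was at 5115, 5191 and 4583 in CD104high, against 9903, 8855 and 9714 in CD104low, 47.7% lower (log2 fold change -0.94, SE 0.07, limma adjusted p = 0.000202). WDR43, of the same complex, was at 3529, 3411 and 3725 in CD104high, against 6241, 5676 and 6218 in CD104low (log2 fold change -0.77, SE 0.07, limma adjusted p = 0.000237). WDR75, also of that complex, was at 2843, 2814 and 3087 in CD104high, against 5307, 4674 and 5608 in CD104low (log2 fold change -0.83, SE 0.08, limma adjusted p = 0.000307). In none of these 4 genes did the populations overlap.

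Other processome falls included EMG1, an rRNA methyltransferase (-0.85), and IMP4 (-0.70), IMP3 (-0.57) and MPHOSPH10 (-0.26), which bind U3 as 1 complex. NOP14 was at -0.64, UTP15 at -0.59, UTP18 at -0.57, the helicase DDX10 at -0.56, NOC4L at -0.47, UTP14A at -0.38 and the rRNA acetyltransferase NAT10 at -0.37, and all were called. HEATR1 (-0.29) and UTP20 (-0.29), which encode very large scaffold proteins, were called in the full data with adjusted p of 0.0325 and 0.0443 by limma. UTP14A has a retrogene copy, UTP14C, and UTP4, EMG1 and NOP9 overlap SNTB2, C1S and LTB4R2 on the same strand, so their reads can be shared. NOP9, an RNA-binding protein of the 40S precursor in yeast, was the 1 member that rose. NOP9 (ENSG00000196943.14, GRCh38 chromosome 14, 24299862 to 24309124) was at 815, 763 and 685 in CD104high, against 601, 585 and 553 in CD104low, with no overlap between the populations. With n = 3 each, the mean ± SD was 754 ± 65 in CD104high and 579.8 ± 24.9 in CD104low, and limma gave a log2 fold change of 0.38 (SE 0.10) with an adjusted p of 0.0179. DDX47, a helicase, was not called and was low in every library, between 59.5 and 83.5.

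Late factors of the small subunit all fell, 6 of 6, with a median of -0.60. BYSL, which encodes bystin, was at 4777, 4476 and 4607 in CD104high, against 7967, 7308 and 7684 in CD104low, without overlap (log2 fold change -0.73, SE 0.06, limma adjusted p = 0.000223). NOB1, the endonuclease that makes the final cut of 18S rRNA, was at 2611, 2671 and 2407 in CD104high, against 4098, 3784 and 3791 in CD104low (log2 fold change -0.60, SE 0.07, limma adjusted p = 0.000507). RRP12, an export factor, was at 3137, 2908 and 2828 in CD104high, against 4658, 4195 and 4269 in CD104low (log2 fold change -0.56, SE 0.07, limma adjusted p = 0.000681). The CD104high libraries of NOB1 and RRP12 also all lay below those of CD104low. PNO1, the partner of NOB1, fell by 0.86, LTV1 by 0.59 and TSR1, a GTPase-like factor that caps the pre-40S particle, by 0.33.

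Large subunit factors were the group with the lowest median, -0.69, and 17 of 19 fell. NOC3L was at 1623, 1627 and 1609 in CD104high, against 3220.2, 2877 and 3061 in CD104low, without overlap and with the CD104high libraries close together (log2 fold change -0.91, SE 0.07, limma adjusted p = 0.000202). In yeast the products of NOC3L and NOC2L (-0.55) are partners in precursor particles of the 60S subunit. BRIX1, a factor of early 60S particles, was at 2565, 2594 and 2378 in CD104high, against 5114, 4410.2 and 4864 in CD104low (log2 fold change -0.93, SE 0.08, limma adjusted p = 0.000212). BOP1, PES1 and WDR12 encode the PeBoW complex, needed for maturation of 28S and 5.8S rRNA. BOP1 was at 9361, 8704 and 8748 in CD104high, against 18204, 14837 and 17537 in CD104low (log2 fold change -0.91, SE 0.08, limma adjusted p = 0.000264), while PES1 fell by 0.69 and WDR12 by 0.69, so the members of this complex all fell.

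Further large subunit falls were NOP16 (-0.97), NIP7 (-0.89), EBNA1BP2 (-0.89), the nucleolar GTPase nucleostemin, GNL3 (-0.87), MRTO4 (-0.84), RRS1, which takes part in loading the 5S ribonucleoprotein (-0.73), DDX18 (-0.62), PPAN (-0.42), GNL2 (-0.39), DDX56 (-0.37) and RRP1 (-0.28). PPAN lies on the same strand as a longer gene that reads through into P2RY11, so its reads can be shared. RRP1B, a paralogue of RRP1, was at 4499, 4071 and 4349.6 in CD104high, against 4202, 4155 and 4484 in CD104low and was not called (log2 fold change 0.01, SE 0.07, limma adjusted p = 0.93), and RRP1 and RRP1B therefore gave different calls, although the difference between them was not tested. NOP2, an rRNA cytosine methyltransferase, was at 51.3, 57.4 and 33.5 in CD104high, against 45.3, 76.8 and 29.2 in CD104low and was not called (log2 fold change -0.02, SE 0.38, limma adjusted p = 0.977). NOP2 and DDX47 had the lowest levels per kilobase of the 58, with 15.6 in CD104high and 16.6 in CD104low for NOP2 and 25.6 in CD104high and 26.6 in CD104low for DDX47. Each overlaps another gene on the same strand in GENCODE 29, APOLD1 for DDX47 and an unnamed locus for NOP2. The part of shared reads in these low levels was not tested.

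**Figure D3:**
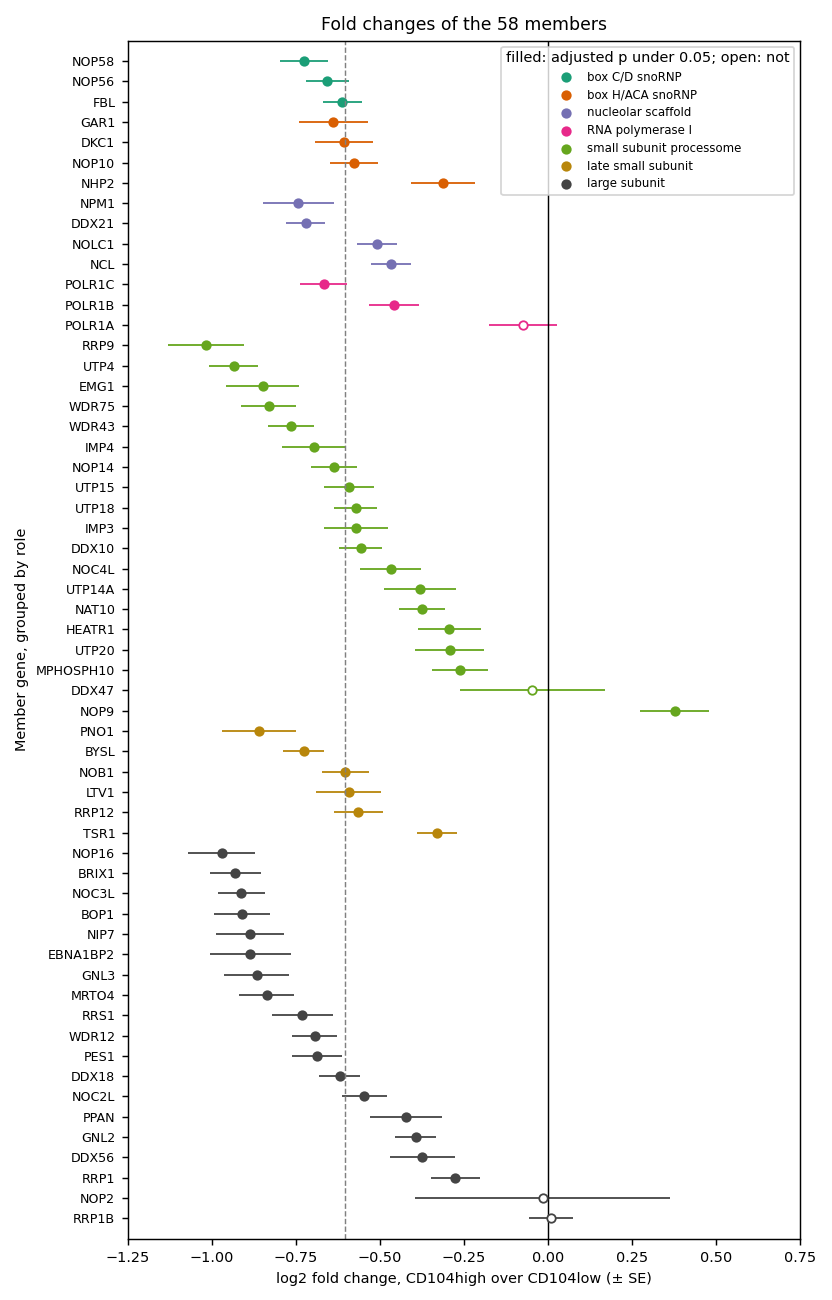
Log2 fold change of CD104high over CD104low (horizontal axis, bars ± SE, n = 3 each) for every member, grouped by role. Filled points have a limma adjusted p under 0.05, open points do not, and the dashed line is the median of the members, -0.60. RRP9 lies farthest left at -1.02 and NOP9 farthest right at 0.38.

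**Figure D4:**
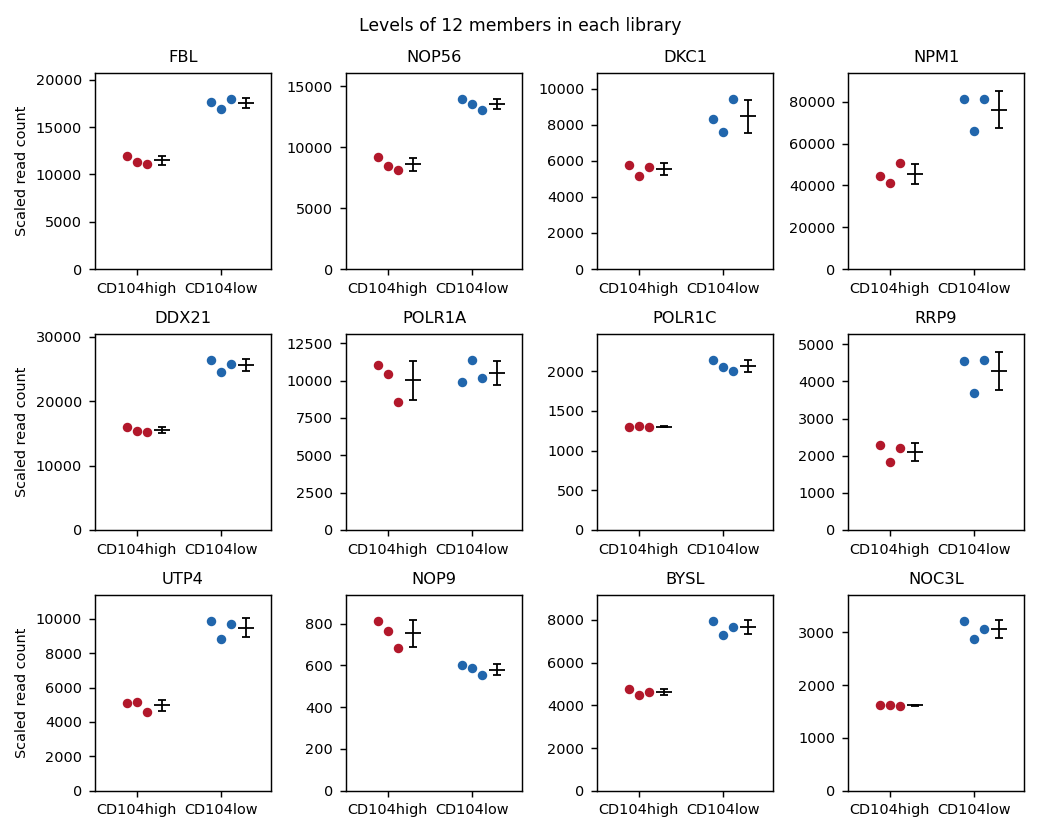
Scaled read count (vertical axis, starting at 0) of 12 members in each library, CD104high left and CD104low right, with the mean and SD beside the points (n = 3). The populations do not overlap in 11 panels, of which NOP9 has the higher CD104high values, and they overlap in POLR1A.

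Under the 18 other settings tried, 45 members stayed called lower in each, where 14% to 26.6% of all tested genes were called lower in a single setting. Of the members called in the main fit, 9 lost their call in some other setting. POLR1A, not called in the main fit, was called only with the length and GC correction. HEATR1 lost its call without replicate 1 (limma adjusted p = 0.0573) or 3 (0.0645) of CD104high, or without replicates 1, 2 or 3 of CD104low (0.0576, 0.0693 and 0.0899). UTP20 did so without the same libraries, with limma adjusted p of 0.0515 and 0.0669 for CD104high and 0.101, 0.093 and 0.086 for CD104low, and its log2 fold change was -0.17 without replicate 3 of CD104high. Both also missed the threshold with scaling to total reads (0.0689 for HEATR1 and 0.0913 for UTP20), with quantile normalization (0.0745 and 0.0849) and without the intensity trend (0.0722 and 0.0988). NHP2 lost it without replicates 1 or 2 of CD104high (0.084 and 0.0903) or 1 or 3 of CD104low (0.0924 and 0.0893), and without the trend (0.0661). MPHOSPH10 did so without those 4 libraries (0.0713, 0.106, 0.0968 and 0.0987), as did UTP14A (0.057, 0.0672, 0.0663 and 0.0713). NOP9 was no longer called without CD104high replicate 1 (0.0801) or 2 (0.0514), or without CD104low replicate 3 (0.0603). RRP1 lost its call when CD104high replicate 2 (0.0599) or CD104low replicate 1 (0.0707) was left out. PPAN (0.0616) and DDX56 (0.0525) lost theirs without replicate 1 of CD104low.

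Correcting for GC content and transcript length changed single members in both directions. NOP9 was then at 0.19 (limma adjusted p = 0.156), NHP2 at -0.14 (0.143) and MPHOSPH10 at -0.10 (0.31), and these 3 were not called. NOP10 moved to -0.29, LTV1 to -0.38, HEATR1 to -0.45 and UTP20 to -0.48, all called. Under the correction 52 members were called lower and 0 higher, beside 21.5% of all tested genes called lower. DESeq2 and edgeR each called 1 member higher, without the correction. With the correction the median log2 fold change of the members was -0.55.

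Beyond the 58, a list of 122 other genes of the pathway gave 95 falls and 0 rises by limma, with a median log2 fold change of -0.44. Over all tested genes, 21.6% were called lower and 21.8% higher. RIOK3, a kinase of the late 40S particle, was at 0.16 (limma adjusted p = 0.0826) and was called higher in 5 of the 18 other settings and in none of edgeR, DESeq2 and the fits that left out 1 library. Among RNA polymerase I subunits and factors, 12 of 18 fell, including POLR1E at 2644, 2388 and 2260.0 in CD104high, against 4152, 4009.8 and 4473 in CD104low (-0.79) and the initiation factor subunit TAF1A (-0.84). These 18 include subunits shared with RNA polymerase II, of which POLR2E, POLR2F, POLR2H and POLR2K fell and POLR2L was not called. Among snoRNP proteins and assembly factors 9 of 10 fell, with the AAA ATPases RUVBL1 (-0.58) and RUVBL2 (-0.66) having the smallest p. Of other processome genes 32 of 36 fell. DCAF13 was at 3366, 3544 and 3506 in CD104high, against 8894, 6661 and 8417 in CD104low (log2 fold change -1.19, SE 0.10, limma adjusted p = 0.000235), a larger fall than that of any of the 58 members. The rRNA dimethyladenosine transferase DIMT1 fell by 0.79. Of the 122 genes, RPF2 (-1.08), POLR2K (-1.06), RSL24D1 (-1.05) and NIFK (-1.04) also fell further than any of the 58 members. Of other late small subunit factors 4 of 7 fell, among them the kinases RIOK1 (-0.71) and RIOK2 (-0.69). Of other large subunit factors 38 of 51 fell, with GTPBP4 (-0.70) and PAK1IP1 (-0.86) having the smallest p.

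RNAs of the ribosomal proteins that these factors assemble were lower too. The counts below stand beside 21.6% of all tested genes called lower and 21.8% called higher. Of 82 cytosolic ribosomal protein genes 67 fell and 0 rose, with a median of -0.41, and of 77 mitochondrial ribosomal protein genes 60 fell and 0 rose, with a median of -0.49. Mitochondrial ribosomes are built in another compartment by other factors. The medians of these families lay nearer to 0 than the -0.60 of the members, and the difference between the lists was not tested. MYC was at 5788, 5159 and 5173 in CD104high, against 9179.8, 8032 and 8417 in CD104low (log2 fold change -0.67, SE 0.07, limma adjusted p = 0.000449). Genes of S phase fell in 13 of 20 cases and rose in 0, with a median of -0.30, and their summed level was 137746 to 149002 in CD104high and 158967 to 186456 in CD104low. The part of MYC or of cell cycle phase in the lower levels of the members was not tested.

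**Figure D5:**
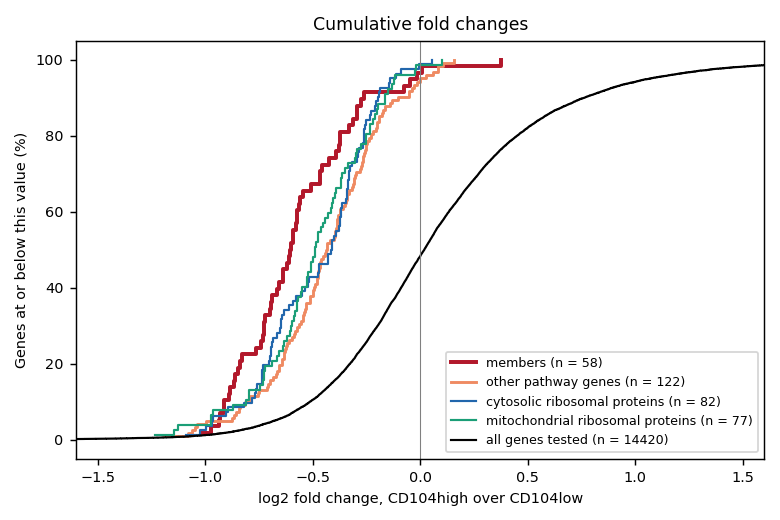
Cumulative share of genes (vertical axis, %) at or below each log2 fold change of CD104high over CD104low (horizontal axis, showing the central range). The 58 members and the 122 other pathway genes lie left of all 14420 tested genes, as do the 82 cytosolic and 77 mitochondrial ribosomal protein genes, with medians of -0.60, -0.44, 0.02, -0.41 and -0.49 in that order.

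Many ribosome genes carry snoRNAs in their introns. In GENCODE 29, 9 of the 58 members (15.5%) held at least 1 snoRNA gene on their own strand, against 221 of 13159 tested protein-coding genes (1.68%). These hosts were NOP56 with 5 snoRNA genes, NOP58 with 4, GNL3 with 6, NCL and WDR43 with 3 each, DKC1, PPAN and TSR1 with 2 each and POLR1C with 1. All 9 fell, between -0.87 in GNL3 and -0.33 in TSR1, and their median of -0.66 lay beside -0.59 for the other 49 members. Over all tested protein-coding genes the median was -0.15 in hosts and 0.01 in the others. Levels of the snoRNAs were not analysed here.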

How the data were processed

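The 6 libraries are those of CD104high and CD104low MDA-MB-231 cells, 3 each. The authors deposited, per the file headers, a scaled read signal per gene and library, a log2 fold change with its standard error, and a p-value with an adjusted p-value. FastQC, Salmon 1.3.0, DESeq2 and GRCh38 are named in the submitters' processing notes, in no stated order, while the sources used here give no annotation, filter, model or strand setting. Each library's values were whole multiples of 1 step, and dividing by it gave whole numbers within 0.01 for 100% of values. If Salmon made them, these are rounded estimates of reads. edgeR on these reads called 6267 genes.

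In R 4.3.3, limma 3.58.1 with a trend on the mean level was fitted to log2(value + 1) of the 14420 genes that reached 10 in 3 or more libraries, with population as the only term. A fold change on this scale understates the change of low genes. edgeR 4.0.16 and DESeq2 1.42.0 on the recovered reads, other scalings, filters and pseudocounts, a replicate block, a length and GC correction and leaving out each library were alternatives. Positions and lengths came from GENCODE 29, matched for 14994 genes (99.8%), with the longest transcript of each gene. Promoters came from RefSeq. Overlapping and antisense genes may share reads. Pairs of replicates differed by more than counting noise (chi-square 13.5 to 46.3 times its degrees of freedom), so no library was taken as deposited more than once. This does not show whether they came from separate cultures.

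The members and all lists were chosen with earlier results of these data known. Any member could be named. Values in every library are given for up to 3 members of each role with the smallest p, for the member called against the majority, and for the 3 members of highest level, and of the other pathway genes the 2 with the smallest p in each role are named. ITGB4, CD44, KMT2C and MYC are given beside them. NHP2, RRP9, RRP1B, NOP2, POLR1E, DCAF13, EPCAM and ERBB2 are given by library beyond that rule. RIOK3, RPF2, RSL24D1, NIFK, POLR2E, POLR2F, POLR2H, POLR2K and POLR2L are named beyond it. All of these were chosen after their values were seen.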

Additional observations from a re-analysis of the deposited data

How the results depend on the processing

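The count of members called lower was 53, between 50 and 53 over the other tools, scalings, filters and pseudocounts, and 45 to 51 without 1 library. Their median log2 fold change stayed between -0.65 and -0.55 over the 18 alternatives. Of all tested genes, 18.7% to 26.6% were called lower in the fits of all 6 libraries. Without 1 library that share was 14% to 22.3%, and it was 14% without replicate 1 of CD104low, where 45 members were called lower. The count of members called higher was 1, and it was 0 with the length and GC correction and 0 to 1 without 1 library. Of the other pathway genes 0 were called higher, and 1 (RIOK3) was with the replicate block, scaling to total reads, quantile normalization, the length and GC correction and the authors' deposited values. The count of all called genes was 6257, and 4101 to 6395 without 1 library, with 4101 without replicate 1 of CD104low. Scalings moved the median of all genes by less than 0.1.

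Members near 0 changed sign. NOP2 was at 0.017 with scaling to total reads, and at -0.35 to 0.34 without 1 library. RRP1B was at -0.0070 in edgeR, -0.12 with the length and GC correction and -0.024 to 0.048 without 1 library. DDX47 was at 0.094 with the correction and -0.17 to 0.069 without 1 library, and POLR1A -0.15 to 0.036. The cause was not tested.

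With the replicate number as a block, 53 members were called lower and 1 higher, and 7876 genes in all. With this block the limma adjusted p was 0.0066 for UTP20, 0.0086 for HEATR1 and 0.0020 for NHP2. Same-numbered libraries deviated together with correlations of 0.084, 0.36 and 0.32, and every library correlated best with its own number. Between libraries of different numbers the correlations ran from -0.32 to 0.013. The labels do not say whether the numbers mark pairs, and the main fit did not use them.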
